A study of Homo sapiens with 10 samples.

Results

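The comparison of BRG1-mut with control took 4 of the 10 RNA-seq libraries of the series and asked which exons are spliced differently when an ATPase-dead BRG1 is expressed. The cells were C33A, a human cervical carcinoma line that the study describes as deficient in SWI/SNF. Control cells carried the plasmid pOPRSVI and BRG1-mut cells carried pBJ5-BRG1-K798R, which encodes BRG1 with a substitution in the ATPase domain, each with 2 replicates. All cells were transfected transiently with Lipofectamine and harvested after 48 h. The files do not give the share of cells that took up a plasmid, and the plasmids of the 2 groups differ in name beyond the insert. The labels do not say that replicates came from separate cultures, and with 2 libraries against 2 an exact two-sided permutation test cannot give a p-value below 0.333, so differences are given as values with no test.

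The members of the comparison were all cassette exon events that the deposited MISO tables of BRG1-mut list. An event is an exon with its flanking exons, and PSI (percent spliced in, given as a fraction from 0 to 1) is the share of transcripts that keep the exon. Replicate 1 listed 723 events and replicate 2 listed 632, which gave 1210 events and 1165 distinct exons of the 3102 events and 2969 exons of the whole series. Every listed event had already passed a Bayes factor above 10 in the authors' comparison of the same libraries, so that a difference from control is part of how the events were chosen. An exon with a higher PSI in BRG1-mut than in control is called included, and one with a lower PSI is called skipped.

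BRG1 is one of the mutually exclusive ATPases of the SWI/SNF complexes, which use ATP to slide or evict nucleosomes. Splicing takes place largely while RNA polymerase II transcribes through chromatin, and the ATPases bind RNA and splicing factors. An ATPase-dead protein is used to ask which effects of BRG1 do not need its ATPase activity. Exons are recognised by the spliceosome through a polypyrimidine tract and AG at the 3′ splice site and GT at the 5′ splice site, helped by SR and hnRNP proteins that bind in or near the exon.

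The presence of a BRG1 plasmid was checked by the level of the gene it carries. The BRG1 gene SMARCA4 (ENSG00000127616) had a base mean (the authors' mean of normalised counts over the libraries of a table) of 29824 in the table of the 2 BRG1-mut and 2 control libraries. The base mean of SMARCA4 was 3864 and 3076 in the tables of BRM-wt and BRM-mut, cells with plasmids for the other SWI/SNF ATPase, which share the controls and hold no BRG1 plasmid. It was 25802 in the table of cells with the wild-type BRG1 plasmid, so that this level cannot tell the mutant plasmid from the wild type. Of the epithelial markers, the base mean was 272 for KRT18, 134 for KRT8, 30.2 for EPCAM, 3.05 for CDH1 and 0 for KRT19, so that KRT19 and nearly all CDH1 were absent. PTPRC, a leukocyte marker, had a base mean of 1529, and between 1576 and 1851 in the other 3 tables. COL1A1, ALB and MYH7, markers of other tissues, lay at 35.6, 6.89 and 0.91, and PECAM1 was not matched. The base means of all genes summed to 36743115 normalised counts, and 11934 of 63152 genes reached a base mean of 100. A change in the share of cells that express an RNA and a change in its level per cell cannot be told apart in these bulk libraries.

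Short coding exons among those named below are shown with 20 intronic bases before the exon and 6 after it in lower case and the exon in capitals, so that their composition can be compared. The first set was included in BRG1-mut. These coding exons have a GC content of 67.7% (SMARCA4), 60% (EMC4), 57.1% (MATCAP1) and 59.8% (GADD45A).
SMARCA4 exon 27 (chr19:11144443-11144541, plus strand): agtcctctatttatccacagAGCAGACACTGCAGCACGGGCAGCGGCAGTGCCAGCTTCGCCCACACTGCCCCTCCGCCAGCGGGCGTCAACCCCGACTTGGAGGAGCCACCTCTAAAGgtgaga
EMC4 exon 2 (chr15:34517737-34517851, plus strand): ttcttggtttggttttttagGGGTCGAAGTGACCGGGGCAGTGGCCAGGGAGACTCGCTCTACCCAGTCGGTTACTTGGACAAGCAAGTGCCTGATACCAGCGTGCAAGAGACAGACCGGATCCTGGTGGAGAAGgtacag
MATCAP1 exon 6 (chr16:67211913-67212010, minus strand): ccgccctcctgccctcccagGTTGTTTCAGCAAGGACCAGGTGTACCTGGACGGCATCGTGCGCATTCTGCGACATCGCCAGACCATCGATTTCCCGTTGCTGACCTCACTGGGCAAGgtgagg
GADD45A exon 2 (chr1:68151708-68151809, plus strand): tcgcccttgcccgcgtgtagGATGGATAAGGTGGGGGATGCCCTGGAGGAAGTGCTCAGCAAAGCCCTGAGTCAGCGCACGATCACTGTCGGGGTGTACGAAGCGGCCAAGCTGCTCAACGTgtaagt

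The second set was skipped in BRG1-mut. These neighbouring coding exons of TIMMDC1 have a lower GC content than the exons above.
TIMMDC1 exon 3 (chr3:119222379-119222467, plus strand): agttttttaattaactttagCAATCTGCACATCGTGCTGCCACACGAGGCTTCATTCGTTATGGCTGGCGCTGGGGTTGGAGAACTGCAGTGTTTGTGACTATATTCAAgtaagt
TIMMDC1 exon 4 (chr3:119222801-119222868, plus strand): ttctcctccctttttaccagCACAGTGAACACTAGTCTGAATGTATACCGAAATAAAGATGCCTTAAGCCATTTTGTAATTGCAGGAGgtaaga

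Of the 12 skipped exons named below, 6 lie in a 5′ UTR, and the 3′ splice sites of 4 of these are shown with 20 intronic bases in lower case and the first 3 exonic bases in capitals.
UBE2G2 exon 2 (chr21:46221199-46221313, minus strand): attttttcttttcttggcagCCT
MPST exon 2 (chr22:37419793-37419968, plus strand): ccagctactgttcctattagGTC
ITGB1 exon 2 (chr10:33242521-33242737, minus strand): ttgtggtaatttattttcagATA
HDLBP exon 2 (chr2:242208244-242208368, minus strand): aggtccacattctgttgtagGTC

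SMARCA4 itself held the exon with the largest difference. PSI of its exon 27, which has 99 bp and lies in the coding sequence, was 0.11 and 0.03 in control replicates 1 and 2 against 0.77 and 0.79 in those of BRG1-mut. The mean change was 0.71 ± 0.071 (SD, n = 2 same-numbered pairs), and the groups were separated by 0.66. The values in BRG1-wt, cells with the wild-type BRG1 plasmid, were 0.85 and 0.70, on the same side of control. In BRM-wt replicate 2, which holds no BRG1 plasmid, PSI was 0.32, also above its control of 0.03. BRM-wt replicate 1 and BRM-mut had no listed value. RNA from the BRG1 cDNA and from the gene itself are counted together in SMARCA4, and the files cannot tell them apart. The second listed event, exon 29 with 96 bp, had a PSI of 0.07 in control and 0.00 in BRG1-mut, both of replicate 2.

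Across the events listed in both replicates, inclusion was the more frequent direction. Of 145 such events, both BRG1-mut values stood above both control values in 94 (64.8%) and below them in 37 (25.5%), and the ranges overlapped in 14. These events belong to 79 and 32 genes. The median of the mean change was 0.303 in the included events and -0.32 in the skipped events. Since these 145 events were listed for their difference from control, the shares describe the direction and not how common a difference was. The median gap between the ranges was 0.15 in the included and 0.13 in the skipped events, against a median difference between the control libraries of 0.14 and 0.09 and between the BRG1-mut libraries of 0.09 and 0.04. In the included events the gap was thus about as wide as the spread between the control libraries. In 21 included and 10 skipped events the main form changed, with both control values on one side of a PSI of 0.5 and both BRG1-mut values on the other.

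**Figure D1:**
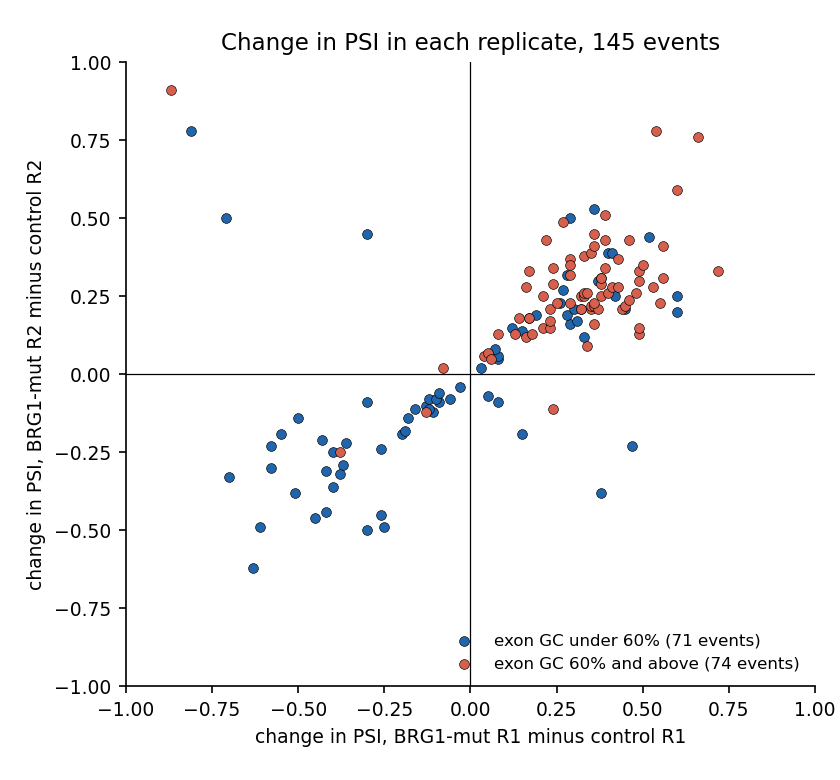
Change in PSI in replicate 1 (horizontal axis) against replicate 2 (vertical axis) for the 145 events listed in both replicates of BRG1-mut, with each point 1 event coloured by the GC content of its exon. Of the 74 events with a GC content of 60% and above, 71 had a positive mean change, and 11 events lie in the quadrants with opposite signs.

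The 4 libraries did not form 2 compact groups. In the 94 included events, the median PSI was 0.24 in control replicate 1, 0.39 in control replicate 2, 0.62 in BRG1-mut replicate 1 and 0.815 in BRG1-mut replicate 2. Control replicate 2 stood above control replicate 1 in 83 of these events and below it in 6, and BRG1-mut replicate 2 stood above BRG1-mut replicate 1 in 74. The skipped events showed the reverse, with medians of 0.78 and 0.53 in control against 0.30 and 0.22 in BRG1-mut, and control replicate 2 was the lower of the controls in 32 of 37. Control replicate 2 thus lay between control replicate 1 and the BRG1-mut libraries in most events of either direction.

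**Figure D2:**
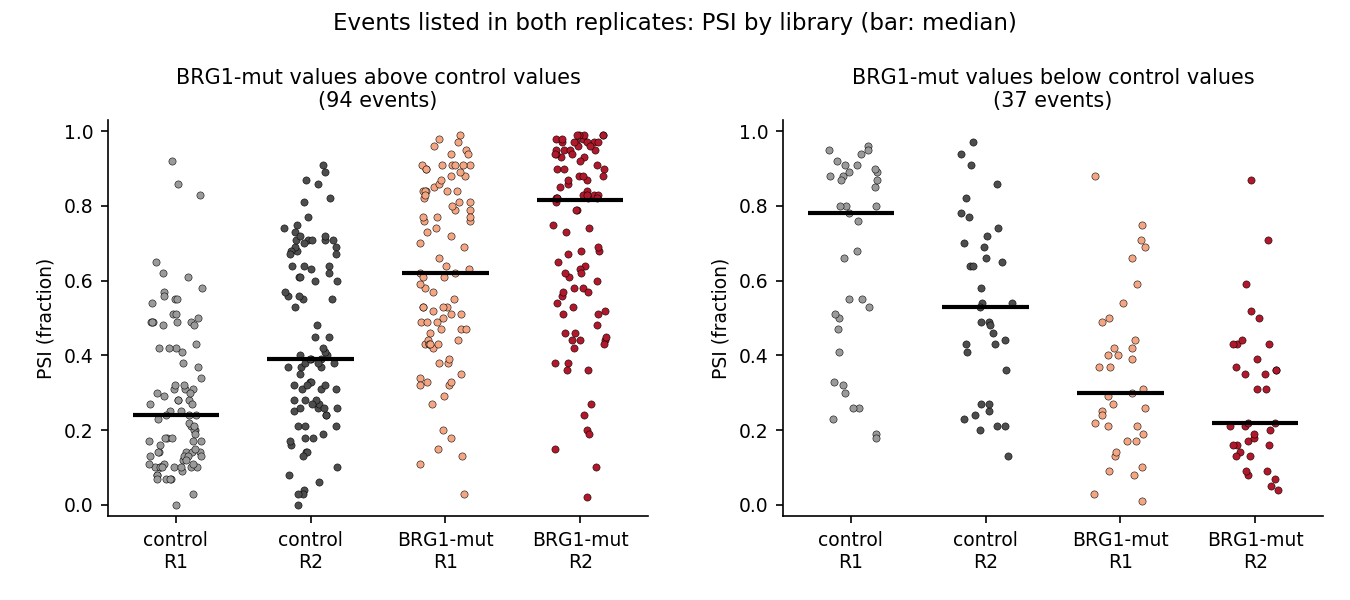
PSI (vertical axis, fraction) of the events listed in both replicates, by library, for the 94 events with BRG1-mut values above and the 37 with values below the control values. Each point is 1 event and the bar is the median, which for the included events goes from 0.24 and 0.39 in the controls to 0.62 and 0.815 in BRG1-mut.

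The next included exons were those of FOSB, SLC22A20P, SNX15, EMC4, MATCAP1 and ZFP36L1, in the order of their mean change. FOSB encodes an AP-1 transcription factor, and its coding exon 2 (321 bp) had a PSI of 0.07 and 0.10 in control against 0.61 and 0.88 in BRG1-mut. The mean change was 0.66 ± 0.17 (SD, n = 2), at a base mean of 112. SNX15, a sorting nexin of endosomes, had values for exon 7 of 0.12 and 0.57 in control against 0.84 and 0.90 in BRG1-mut, a mean change of 0.525 ± 0.276 (SD, n = 2). Here the control libraries differed from each other by more than control replicate 2 did from BRG1-mut. EMC4 is a subunit of the ER membrane protein complex, which inserts membrane proteins. Its exon 2 shown above had a PSI of 0.24 and 0.55 in control against 0.80 and 0.96 in BRG1-mut (0.485 ± 0.106, SD, n = 2). ZFP36L1, which binds AU-rich elements and promotes mRNA decay, had values for exon 2 of 0.14 and 0.32 in control against 0.53 and 0.83 in BRG1-mut (0.45 ± 0.085, SD, n = 2).

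Exon 6 of MATCAP1, a tubulin carboxypeptidase, had a PSI of 0.42 and 0.53 in control against 0.94 and 0.97 in BRG1-mut, with a gap of 0.41 between the groups. Exon 7 of REEP4, an ER-shaping protein, had a PSI of 0.49 and 0.56 in control against 0.95 and 0.99 in BRG1-mut. SLC22A20P, a transcribed pseudogene of an organic anion transporter, had values for exon 10 of 0.23 and 0.35 in control against 0.83 and 0.94 in BRG1-mut, at a base mean of 11.2. In MATCAP1, REEP4 and SLC22A20P the gap between the groups, 0.39 to 0.48, was wider than the difference within either group.

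For the other 4 of the 12 named included exons the BRG1-mut values were 0.47 to 0.99 and the control values 0.11 to 0.74. Exon 2 of TIRAP, an adaptor of Toll-like receptors, had a PSI of 0.11 and 0.26 in control against 0.47 and 0.79 in BRG1-mut. NRSN2, a neuronal membrane protein, had values for exon 4 of 0.16 and 0.39 in control against 0.66 and 0.74 in BRG1-mut. In exon 2 of MYADM, a membrane protein first described in myeloid cells, the values were 0.30 and 0.74 in control against 0.90 and 0.99 in BRG1-mut. BRD2, a BET bromodomain protein that reads acetylated histones, had a PSI for a long exon 2 of 1333 bp of 0.32 and 0.64 in control against 0.81 and 0.97 in BRG1-mut. Control replicate 1 was the lowest of the libraries in each of these 4 exons.

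**Figure D3:**
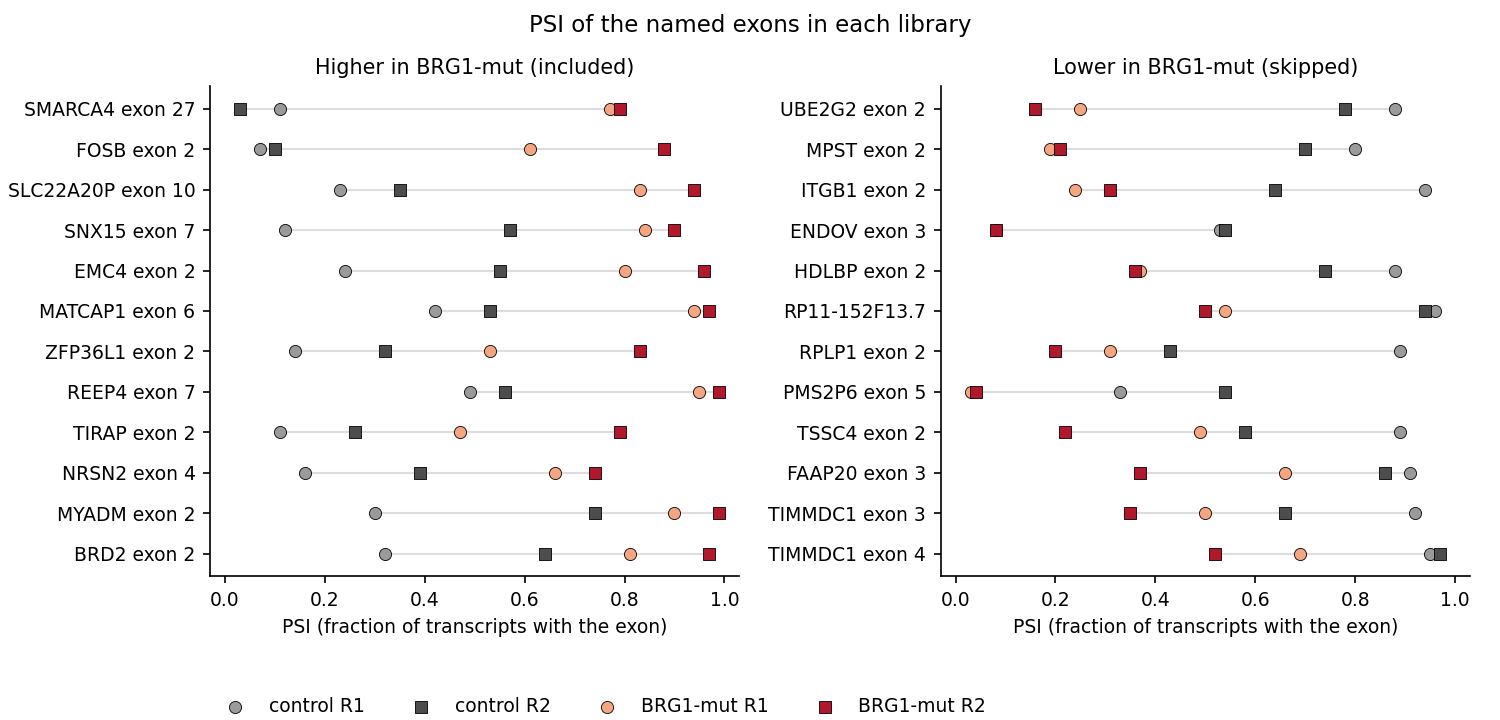
PSI (horizontal axis, fraction) in each of the 4 libraries for the 12 included (left) and 12 skipped (right) exons of the largest mean change with groups that do not overlap. In ENDOV, HDLBP and MATCAP1 the points of a group lie close together, while in SNX15, RPLP1 and MYADM the controls are more than 0.4 apart.

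Among the skipped exons, those in 5′ UTRs had the largest differences. UBE2G2 encodes a ubiquitin-conjugating enzyme of ER-associated degradation, and its exon 2 had a PSI of 0.88 and 0.78 in control against 0.25 and 0.16 in BRG1-mut. The mean change of -0.625 ± 0.0071 (SD, n = 2) had a gap of 0.53 between the groups. MPST, an enzyme of cysteine catabolism that yields hydrogen sulfide, had values for exon 2 of 0.80 and 0.70 in control against 0.19 and 0.21 in BRG1-mut (-0.55 ± 0.085, SD, n = 2). ITGB1 encodes the integrin beta-1 subunit. Its exon 2 had a PSI of 0.94 and 0.64 in control against 0.24 and 0.31 in BRG1-mut, so that the controls differed by 0.30 and the groups by 0.33. HDLBP, the RNA-binding protein vigilin, had values for exon 2 of 0.88 and 0.74 in control against 0.37 and 0.36 in BRG1-mut. ENDOV, an endonuclease that cleaves inosine-containing RNA, had for exon 3 a PSI of 0.53 and 0.54 in control and of 0.08 in both BRG1-mut libraries. TSSC4, a U5 snRNP assembly factor, had values for a 309 bp exon 2 of 0.89 and 0.58 in control against 0.49 and 0.22 in BRG1-mut, which left a gap of 0.09.

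Coding exons made up a smaller part of this group. TIMMDC1, an assembly factor of mitochondrial complex I, had 2 neighbouring exons that were skipped, as shown above. PSI of exon 3 was 0.92 and 0.66 in control against 0.50 and 0.35 in BRG1-mut, and PSI of exon 4 was 0.95 and 0.97 in control against 0.69 and 0.52 in BRG1-mut. Neither length, 89 and 68 bp, is divisible by 3. FAAP20, a member of the Fanconi anaemia core complex, had values for the partly coding exon 3 of 0.91 and 0.86 in control against 0.66 and 0.37 in BRG1-mut. RPLP1, a ribosomal stalk protein, held a long exon of 1641 bp in a noncoding transcript, with a PSI of 0.89 and 0.43 in control against 0.31 and 0.20 in BRG1-mut. A 38 bp exon assigned to RP11-152F13.7 had values of 0.96 and 0.94 in control against 0.54 and 0.50 in BRG1-mut. PMS2P6, a pseudogene of the mismatch repair gene PMS2 with near-identical copies, had for exon 5 a PSI of 0.33 and 0.54 in control against 0.03 and 0.04 in BRG1-mut. Its base mean was 0.24, so that reads of this exon cannot be assigned to PMS2P6 with certainty.

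The 3 genes that the study followed up showed smaller differences. Exon 2 of GADD45A, a stress-induced growth arrest gene, had a PSI of 0.08 and 0.19 in control against 0.34 and 0.42 in BRG1-mut (0.245 ± 0.021, SD, n = 2). Exon 3 of GADD45A had a PSI of 0.17 and 0.27 in control against 0.38 and 0.52 in BRG1-mut (0.23 ± 0.028, SD, n = 2). A second event on exon 3 was listed in replicate 1 alone, at 0.22 in control and 0.35 in BRG1-mut. Exon 5 of MAZ, a zinc finger transcription factor, had a PSI of 0.08 in both control libraries and of 0.13 and 0.15 in BRG1-mut (0.06 ± 0.014, SD, n = 2). MYL6, a myosin light chain, was listed in replicate 1 alone, with a PSI for the 45 bp exon 6 of 0.07 in control and 0.13 in BRG1-mut. The value of MYL6 in control replicate 2, taken from another table, was 0.10.

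Exon GC content differed between the directions in each replicate. After exons with opposite directions (13) and short forms (28) had been left out, 1124 exons remained, of which 643 were included and 481 skipped (57.2% included). Only 128 of them (11.4%) were listed in both replicates. The GC content of the exon was 57.4% ± 9.15 (SD, 400 exons) in included and 48.5% ± 7.59 (SD, 284 exons) in skipped exons of replicate 1. In replicate 2 it was 54.3% ± 11.2 (SD, 348 exons) and 49.1% ± 8.43 (SD, 246 exons), so that the difference was 8.88 percentage points in replicate 1 and 5.19 in replicate 2. All 148545 internal exons of expressed genes (a base mean of 100 or more) had a mean of 49.6% ± 9.82 (SD). Skipped exons thus lay near the mean of all internal exons, and included exons above it. The internal exons are not limited to cassette exons, because cassette exons without a call are not listed in the data. For exons listed in both replicates the means were 60.6% (93 included) and 50.7% (35 skipped).

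The lean towards inclusion lay in the most GC-rich exons. In replicate 1, 210 of 224 events with an exon GC content of 60% and above were higher in BRG1-mut (93.8%), and in replicate 2, 152 of 170 were (89.4%). Below 60% no such lean towards inclusion was found, since the shares were 38.03%, 31.6% and 49.2% in replicate 1 and 52.0%, 50.5% and 44.2% in replicate 2 for a GC content under 40%, of 40 to 50% and of 50 to 60%. With exons of 60% and above left out, 28 of the 94 included and 35 of the 37 skipped events remained, and the share of included exons fell to 45.2%. Outside the GC-rich exons, inclusion was thus not the more frequent direction.

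The control libraries differed from each other along the same axis. Among 621 events with a PSI in both control libraries, taken from any table of the series, control replicate 2 was the higher in 178 of 206 with an exon GC content of 60% and above (86.4%). The share was 47.7%, 32.1% and 53.8% in the 3 classes below. Each of these events was listed for a difference from one of the control libraries, so their choice depends on the control values. In events that neither BRG1-mut table lists, it was 29 of 38 (76.3%) for a GC content of 60% and above. Of the 578 events listed in replicate 1 alone and the 487 in replicate 2 alone, only some had a value in both control libraries. The second control value came from the comparison of another group that listed the same event. Among such included events of replicate 1 alone, control replicate 2 was the higher control in 125 of 129. Their median PSI was 0.45 and 0.75 in control replicates 1 and 2 and 0.85 in BRG1-mut replicate 1. Control replicate 2 was the higher in 2 of 67 skipped events of replicate 1 alone with both control values. For replicate 2 alone it was the higher in 23 of 53 included and 19 of 38 skipped events with both control values. For the 74 GC-rich events listed in both replicates of BRG1-mut, the median PSI was 0.225 and 0.385 in control replicates 1 and 2, and 0.575 and 0.745 in BRG1-mut replicates 1 and 2. Of these 74 events, 66 were called included, so that BRG1-mut medians above the control medians follow from how the events were chosen. The part that the difference between the control libraries has in the difference between the groups was not tested.

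**Figure D4:**
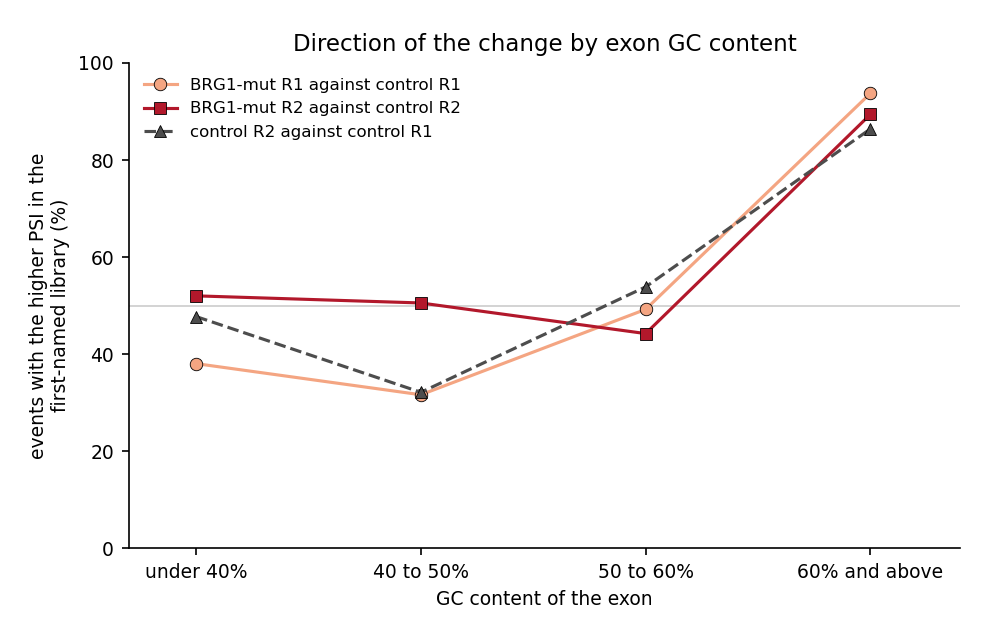
Share of events with the higher PSI in the first-named library (vertical axis, percent) by the GC content of the exon (horizontal axis, 4 classes), for BRG1-mut against control in each replicate and for control replicate 2 against control replicate 1. All 3 lines rise in the class of 60% and above, to 93.8%, 89.4% and 86.4%.

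GC content of the flanking introns followed that of the exons. Over 200 bp on each side it was 48.9% ± 11.9 (SD) for the included and 44.3% ± 10.2 (SD) for the skipped exons, against 44.2% ± 12.1 (SD) for all internal exons. The difference between the directions was 5.62 percentage points in replicate 1 and 4.23 in replicate 2. The exon exceeded its flanks by 6.44 percentage points in included, 4.24 in skipped and 5.36 in all internal exons. Runs of GGGG, searched on the transcript strand in the 100 intronic bases on either side, were present beside 58.2% of included, 46.4% of skipped and 45.8% of all internal exons. The letters ACACA, a motif bound by hnRNPL, were present beside 11.98%, 16.4% and 14.3% of these exons in the same order. ATAAA, a motif bound by SAM68, was present beside 17.3%, 24.3% and 24.97%. These shares were not adjusted for the GC content of the introns, which was higher beside included exons.

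Position in the transcript also differed between the directions. Of exons with annotated coordinates, 57.1% of the included and 40.7% of the skipped lay inside a coding sequence, against 75.2% of all internal exons. A 5′ UTR held 10.2% of included and 20% of skipped exons, against 4.06% of all. Second exons made up 28.9% of the included and 43.3% of the skipped exons, and 16.0% of all. The next-to-last exon of the transcript accounted for 34.6% of included, 21.98% of skipped and 14.5% of all internal exons. Among coding exons alone, 123 of 358 included (34.4%) and 24 of 185 skipped exons (12.97%) were next to last, against 10.4% of all coding exons. In each replicate the included exons had the larger share of coding and next-to-last exons and the skipped exons that of 5′ UTR and second exons. Listed exons are all cassette exons and the background is not, and the part this has in the contrast with all internal exons was not tested.

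**Figure D5:**
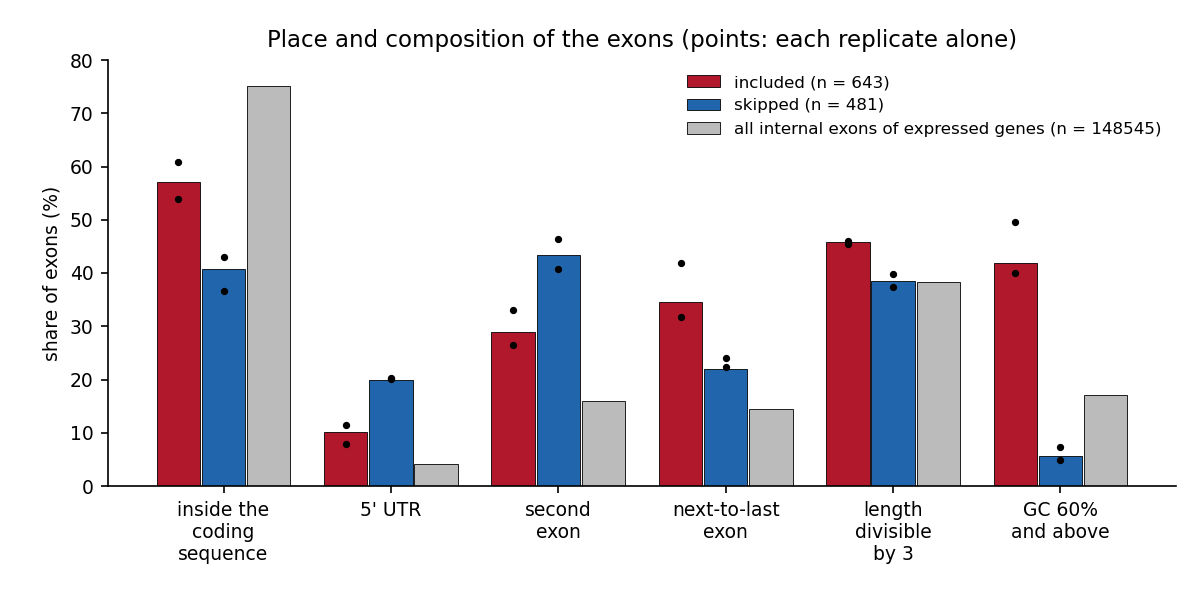
Share of exons (vertical axis, percent) with each property for the 643 included and 481 skipped exons and for all 148545 internal exons of expressed genes (a base mean of 100 or more). Points give the share in each replicate alone, and the bars of place in the transcript rest on exons with annotated coordinates.

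Exon length and reading frame separated the directions less clearly. The median length was 148 bp for included, 130 bp for skipped and 124 bp for all internal exons, but the difference was 24.5 bp in replicate 1, 3 bp in replicate 2 and -26 bp over exons listed in both replicates. A length divisible by 3, which keeps the reading frame, was found in 45.9% of included (295 exons), 38.5% of skipped (185 exons) and 38.2% of all internal exons. Among coding exons the shares were 52.8% of included, 50.3% of skipped and 39.8% of all. The 5′ splice site was GT in 97.98% of included and 98.8% of skipped exons, and GC in 11 and 6 exons, one of which was exon 5 of MAZ. Median flanking introns had 1529 bp upstream and 1534 bp downstream of included exons and 1999 and 1873 bp beside skipped exons.

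Genes with listed exons had higher median levels than expressed genes as a whole. For exons listed in both replicates the median base mean was 2219 for genes with included and 1620 for genes with skipped exons. For either replicate it was 1576 for genes with included exons (7.16% of them under 100) and 1653 for genes with skipped exons (7.96% under 100). The median was 1291 for all genes with a base mean of 100 or more. Of these 11934 genes, 880 (7.37%) held a listed exon in either direction. This share is the background for the gene lists that follow and is not matched for level or for the number of exons in a gene. A gene with several listed exons mostly moved in 1 direction, since 34 of 128 genes with 2 or more exons held both included and skipped ones.

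SWI/SNF subunits held a listed exon in 7 of 26 expressed members (26.9%), beside 7.37% of all expressed genes, and the median change over their 9 exons was 0.19 against 0.08 over all 1124 exons. SMARCA4, whose counts include RNA from the BRG1 plasmid, was the one member with an exon listed in both replicates. The others were named after their values were seen. SMARCD3, the BAF60C subunit, had a PSI for exon 2 of 0.14 in control and 0.85 in BRG1-mut, and SMARCC2, the BAF170 subunit, for exon 29 of 0.12 and 0.40, both in replicate 2. Exon 29 of PBRM1, the polybromo subunit of PBAF, had a PSI of 0.18 in control and 0.43 in BRG1-mut of replicate 1, while control replicate 2 had 0.54. Exon 8 of BRD9, a subunit of the noncanonical complex, had 0.78 and 0.97 in replicate 1. DPF2 and BCL7B had exons with changes of -0.05 and of -0.12 and 0.13. Since each of these rests on 1 pair of libraries, its spread is unknown.

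RNA-binding proteins and splicing regulators made up the next lists. Of 47 expressed hnRNP and related genes, 10 held a listed exon (21.3%), 7 with included and 3 with skipped exons. Listed in both replicates with 1 direction were 1 gene with included and 1 with skipped exons, and the others rest on 1 pair of libraries. HNRNPUL1 had a PSI for the 222 bp form of exon 14 of 0.20 and 0.41 in control against 0.44 and 0.75 in BRG1-mut. HNRNPA1, which represses many exons, had values for its exon 3 of 0.30 and 0.27 in control against 0.21 and 0.18 in BRG1-mut (-0.09, the same in both pairs). Of 25 SR proteins and kinases, 2 held a listed exon (8%). One was TRA2B, an activator that limits its own level through the poison exon 2, with a PSI of 0.26 and 0.21 in control against 0.14 and 0.13 in BRG1-mut. Of 61 core spliceosome genes, 5 did (8.20%). SNRNP70, the U1-70K protein, had values for exon 8 of 0.14 in both control libraries and of 0.18 and 0.20 in BRG1-mut. Exon 13 of SF1, which binds the branch point, had 0.02 and 0.08 in control against 0.08 and 0.13 in BRG1-mut, so that the ranges met at 0.08. The median change over the listed exons was 0.115 for hnRNP genes, 0 for SR genes and 0.055 for core spliceosome genes, beside 0.08 over all exons. SR proteins and core spliceosome genes thus stood close to the background share.

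The remaining lists held few exons. AP-1 and immediate early genes had listed exons in 3 of 19 expressed members (15.8%), all included, and these were FOSB, GADD45A and FOSL1. FOSL1, named after its value was seen, had a PSI for exon 3 of 0.24 in control and 0.74 in BRG1-mut of replicate 1. Myosin, actin and adhesion genes had them in 10 of 39 (25.6%), with 5 genes in each direction. In each direction 1 of these genes had an exon listed in both replicates. CTNND1, the p120 catenin of adherens junctions, had a PSI in one event on exon 3 (289 bp) of 0.20 and 0.31 in control against 0.53 and 0.57 in BRG1-mut. Ubiquitin-conjugating enzymes and E1 genes had them in 5 of 41 (12.2%). UBA1, the main E1 enzyme, had values for exon 2 of 0.47 and 0.25 in control against 0.17 and 0.16 in BRG1-mut. The median change was 0.372 for the exons of AP-1 genes, 0.03 for those of adhesion genes and -0.085 for those of ubiquitin genes.

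DNA repair and checkpoint genes held listed exons in 7 of 72 (9.72%). APEX1, the apurinic endonuclease of base excision repair, had a PSI for exon 2 of 0.55 and 0.81 in control against 0.84 and 0.97 in BRG1-mut, which left a gap of 0.03. RB pathway and cell cycle genes had them in 4 of 43 (9.30%), other chromatin remodellers and histone modifiers in 5 of 73 (6.85%), and polymerase II, elongation and 3′ end factors in 2 of 56 (3.57%). None of 27 expressed cytosolic heat shock genes held a listed exon. The median change was 0.225 for repair, -0.02 for cell cycle, 0.13 for chromatin and -0.05 for polymerase II genes. These lists had shares near or below the 7.37% of all genes.

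The exons of BRG1-mut had these values in the other ATPase groups, whose tables share the control libraries and are therefore given side by side only. For the included events that each table also lists, the median PSI was 0.52 in BRG1-wt replicate 1 (40 events, control 0.24) and 0.665 in replicate 2 (10 events, control 0.39). It was 0.695 in BRM-wt replicate 1 (78 events, control 0.24) and 0.17 in replicate 2 (59 events, control 0.45). In BRM-mut it was 0.22 in replicate 1 (21 events, control 0.24) and 0.52 in replicate 2 (11 events, control 0.64). The replicates of BRM-wt thus lay on opposite sides of their control. Of single exons, exon 2 of EMC4 had a PSI of 0.52 in BRG1-wt replicate 1, 0.89 and 0.15 in BRM-wt replicates 1 and 2, and 0.13 in BRM-mut replicate 1. ITGB1 exon 2 had 0.45 in BRG1-wt replicate 1 and 0.22 and 0.91 in BRM-wt. TIRAP exon 2 stood at 0.74 and 0.88 in BRM-mut, above control as in BRG1-mut.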

How the data were processed

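RNA-seq libraries of C33A cells were compared as 2 BRG1-mut against 2 control libraries. Per the labels and methods, the authors mapped HiSeq reads to GRCh37 with TopHat2 2.0.4, counted genes with HTSeq 0.6.1 and ran DESeq2 and MISO. The deposited PSI is a fraction for each library, from MISO run on same-numbered libraries. The deposited Bayes factor is a score, read here to check that all listed events lie above 10. The base mean is a deposited signal, which the authors computed as the mean of normalised counts over the 4 libraries of a table. Fold changes and p-values in those tables are the authors' own comparison of BRG1-mut with control and were not used. No reads per event are given, so the depth behind a PSI is unknown.

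Exons were matched by coordinates to GENCODE version 44 on GRCh37, which held for 1082 of 1124 exons. Exon numbers are those of the highest-ranked annotated transcript that holds the exon, which need not be the main transcript of the gene. Second and next-to-last places refer to that transcript. Exons with opposite directions in the replicates, and forms under 50% of the longest form sharing an end, were left out. GC content was computed from the exon and 200 bp of each flanking intron. No test was run: events were listed for their difference, and exons are not replicates. The named exons were those of SMARCA4, the 12 with the largest mean change in each direction among exons with groups that do not overlap, those of MYL6, GADD45A and MAZ, and members of gene lists with 1 direction in both replicates. Of forms sharing an end, the longer was named. The members and lists were chosen with earlier results of these data known. The alternatives were other rules for a direction, other exon sets and windows, and each replicate left out. The steps recovered 100% of the directions of 1000 simulated exons. Each simulated exon was given the same direction in both replicates, so this checks the code and not the reliability of the calls. Python 3.11.15 with pandas 2.3.3, numpy 2.4.6, pysam 0.24.0 and matplotlib 3.10.9 was used.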

Additional observations from a re-analysis of the deposited data

Results flagged for a closer look

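Exon 2 of BRD2 had a mean change in PSI of 0.41 in BRG1-mut, with both replicates above control, and of -0.105 in BRM-mut, with both below. Its PSI was 0.54 in BRG1-wt replicate 1 and 0.94 and 0.25 in BRM-wt replicates 1 and 2, against 0.32 and 0.64 in control. HNRNPA1 exon 3 had a mean change of -0.09 in BRG1-mut, with both replicates below control, and of 0.17 in BRM-mut, with both above. The listed values in BRG1-wt replicate 1 (0.46, control 0.30) and BRM-wt replicate 2 (0.47, control 0.27) were also above control. The mean GC content of exons with a higher PSI minus that of exons with a lower PSI was 8.89 percentage points in BRG1-mut replicate 1 and 5.25 in replicate 2, counted over events, and -4.32 and -2.70 in BRM-mut. It was 4.99 and 3.66 in BRG1-wt, and in BRM-wt it was 8.65 in replicate 1 and -8.07 in replicate 2, so that a positive difference was not particular to BRG1-mut and changed sign between the replicates of BRM-wt. The contrasts of BRG1-mut with BRM-mut were noted because every library of one group moved one way and every library of the other the opposite way. The differences between the groups were not tested, and the groups share the control libraries.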

How the results depend on the processing

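The depth behind each PSI is unknown, and 2 libraries per group limit every value. The 94 included events stayed within 1.5 times under all alternatives but one, in which GC contents of 60% and above were left out (28). The 37 skipped events became 23 with a gap of at least 0.1 and 22 with a mean change of at least 0.2. With a single library left out of the same 145 events, the counts were 95 to 100 included and 38 to 40 skipped. As a replicate block, in which each same-numbered pair had to change in one direction, 97 included and 37 skipped events were counted. Both alternatives only relax the rule of groups that do not overlap, so neither could lower the counts. Over the 145 events the difference between the replicates of control had a correlation of -0.026 with that of BRG1-mut, although replicate 2 was the higher in 83 and 74 of the 94 included events. The labels give no shared batch or day for a number, and whether the libraries are paired cannot be told from 2 pairs. The alternatives that left out GC-rich exons or single libraries were chosen after seeing the data.

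The share of included exons, 57.2%, was 58.5% to 58.6% with a replicate left out, 72.7% over exons in both replicates, 60.7% with a change of at least 0.2, 57.4% with a base mean of at least 100, 56.9% with short forms kept, 56.5% without exons of opposite direction in another group and 45.2% under 60% GC. The GC difference of 6.82 percentage points was 9.90 over exons in both replicates, and between 5.19 and 9.28 under the other alternatives. The intron difference of 4.62 was 4.23 to 5.62 with a replicate left out, 5.66 over 100 bp and 3.17 over 500 bp. The length difference of 18 bp turned to -26 bp over exons in both replicates, and the cause was not tested. A length divisible by 3 was found in 45.4% to 46.0% of included exons with a replicate left out, and in 52.8% of included and 50.3% of skipped exons among coding exons. All 39 named events with 4 values kept their direction in each replicate alone, which the rules that named nearly all of them already required.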

Other observations

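In 11 of the 145 events listed in both replicates the pairs changed in opposite directions. A 6 bp exon of PHB2, prohibitin 2, had a PSI of 0.88 and 0.01 in control against 0.01 and 0.92 in BRG1-mut. ECHDC1 exon 2 had 0.10 and 0.48 in control against 0.48 and 0.10 in BRG1-mut. Exon 15 of RANBP17 had 0.52 and 0.16 in control against 0.22 and 0.61 in BRG1-mut. In these exons, named after their values were seen, replicate 1 of one group was close to replicate 2 of the other. PHB2 had a PSI of 1.00 and 0.40 in BRG1-wt, 0.55 in BRM-wt replicate 2 and 1.00 and 0.99 in BRM-mut.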
